A study of Mus musculus with 4 samples.

Results

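The 4 adult globin genes *Hba-a1*, *Hba-a2*, *Hbb-bs* and *Hbb-bt* were followed in red cells and in every other cell of the E18.5 mouse cortex. They were chosen by name for the high levels already known in these data, and 4 of 4 were present among 16600 genes. Single-cell RNA-Seq covered 4 libraries of CD24+ CD45- cells. The authors used CD24 as a pan-neuronal marker and CD45 as a hematopoietic marker. How this gate treats red cells was not tested. WT3 and WT6 came from *Setd5*+/+ fetuses and Het5 and Het9 from *Setd5*+/- fetuses, all on the C57BL/6J strain, the mutant allele being a GFP knockout of *Setd5*. The libraries held 1453, 1954, 1710 and 1445 cells, and the names WT3 to Het9 do not carry the replicate numbers of the sample labels. Nothing says that fetuses were litter mates, and library and fetus cannot be told apart.

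Haemoglobin is a tetramer of a pair of alpha and a pair of beta globin chains that carries oxygen in red cells. *Hba-a1* and *Hba-a2* are the tandem alpha genes, and *Hbb-bs* and *Hbb-bt* the adult beta genes of this mouse strain, under the control of a distant enhancer region. Maturing red cells of the mammalian fetus lose their nucleus and keep mostly globin mRNA, and neurons and their progenitors are not known as a main site of globin synthesis. When a cell breaks during dissociation, its mRNA can stay free in the suspension and enter droplets that hold other cells.

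The alpha genes lie on chromosome 11 of GRCm38 and the beta genes on chromosome 7 (GENCODE M21). *Hba-a1* spans chr11:32283511-32284465 and *Hba-a2* chr11:32296489-32297298, both on the plus strand. *Hbb-bs* spans chr7:103826534-103828096 and *Hbb-bt* chr7:103812524-103813996, both on the minus strand. The 120 bases before each RefSeq transcription start (GRCm38.p6) are shown because the 4 genes share their main promoter motifs and because members of a pair are close copies. They are printed 5′ to 3′ on the gene's own strand, at chr11:32283552-32283671, chr11:32296372-32296491, chr7:103827929-103828048 and chr7:103813924-103814043. Capitals mark the CCAAT box, spelled as its name, the CACCC box, also spelled as its name, and the TATA-like box, searched as ATATAA, each found on either strand. In *Hbb-bt* a copy of the first box read on the opposite strand adjoins the one read on the gene's own strand.
Hba-a1: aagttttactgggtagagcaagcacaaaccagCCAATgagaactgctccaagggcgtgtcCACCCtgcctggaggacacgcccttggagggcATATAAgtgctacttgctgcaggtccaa
Hba-a2: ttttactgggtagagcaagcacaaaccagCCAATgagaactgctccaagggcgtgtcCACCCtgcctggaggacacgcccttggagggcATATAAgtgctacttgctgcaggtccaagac
Hbb-bs: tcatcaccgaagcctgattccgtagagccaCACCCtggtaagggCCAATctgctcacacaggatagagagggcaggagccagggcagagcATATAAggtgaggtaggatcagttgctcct
Hbb-bt: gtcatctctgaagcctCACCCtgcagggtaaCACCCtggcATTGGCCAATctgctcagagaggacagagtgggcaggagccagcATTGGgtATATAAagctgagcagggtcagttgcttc

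All 4 windows held each of the 3 motifs. Over 32851 RefSeq promoter windows of the same length, 21.3% held the CCAAT box, 31.7% the CACCC box and 4.47% the TATA-like box. The alpha windows were the same letters apart from an offset of the annotated start, with 117 identical positions, whereas the beta windows matched at 88 of 121 aligned positions. The transcripts matter more for what can be counted. From the start codon to the end of the shared stretch, the *Hba-a1* and *Hba-a2* transcripts differed at 1 of 503 bases, 122 bases before the end of that stretch, beyond which *Hba-a2* is annotated 16 bases longer. *Hbb-bs* and *Hbb-bt* differed at 40 of 576 positions, with 1 of them in the coding sequence. The split between the alpha genes therefore rests on few bases, its values are uncertain, and the sources used here do not say how reads that fit both copies were treated. Values below count 3′ tags of molecules and were not divided by transcript length.

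Of the whole data, 6562 cells carried 1258 to 14996 unique molecular identifiers (UMIs), each a count of 1 captured molecule. Outside red cells, *Setd5* averaged 1.19 UMIs per 10000 in WT3, 1.08 in WT6, 0.541 in Het5 and 0.591 in Het9. Its log2 difference was -0.89 ± 0.08 (SE, limma adjusted p = 0.00538), which became -0.82 with an adjusted p of 0.0548 without WT3. Clustering without haemoglobin genes gave 14 clusters, most led by cortical neuron, progenitor and interneuron markers. Cluster 7 was led by striatal neuron markers such as *Ebf1*. A melanocyte-like cluster 11 was led by *Dct* and an immune-like cluster 12 by *Cd74*. The 50 leading genes of each cluster held no erythroid gene. They were found without cells of at least 5% globin, so this says nothing on those cells. Such cells made up 5.96% of cluster 7 (24 cells), their highest share of any cluster. No cluster thus had a median of 5% globin. Barcodes were shared by libraries: 56 occurred in all 4, 3 in 3 and 22 in 2, and these 56 made up most of clusters 11 and 12.

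Red cells were therefore taken as cells with at least 5% of their UMIs from the 4 globins, which left 34 cells (0.518%) and 6528 others. The share used to choose them is itself a readout, so globin levels in red cells describe the choice. The 34 numbered 8 in WT3 (0.551%, exact 95% interval 0.238 to 1.08), 8 in WT6 (0.409%, 0.177 to 0.805), 3 in Het5 (0.175%, 0.0362 to 0.512) and 15 in Het9 (1.04%, 0.582 to 1.71). Both *Setd5*+/+ values lay between those of the *Setd5*+/- libraries. The mean difference was 0.127 percentage points (exact two-sided permutation p = 1, the smallest possible being 0.33). Intervals cover counting error only.

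Most red cells stood far from the limit. Globins made up at least 23.0% and at most 90.5% of the UMIs of 30 cells, and 4 cells lay between 6.43% and 7.39%. The next cells below the limit had 3.74% and 1.76%. Of the 30, 9 held fewer than 3000 UMIs, and 7 of these were in Het9, where they ran from 23.0% to 40.6% globin. Without the globins, the red cells of Het9 had a median of 1235 UMIs, those of WT3 1838, of WT6 1972 and of Het5 5727. The red cells of Het9 were thus the most numerous and the poorest in other transcripts.

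**Figure D1:**
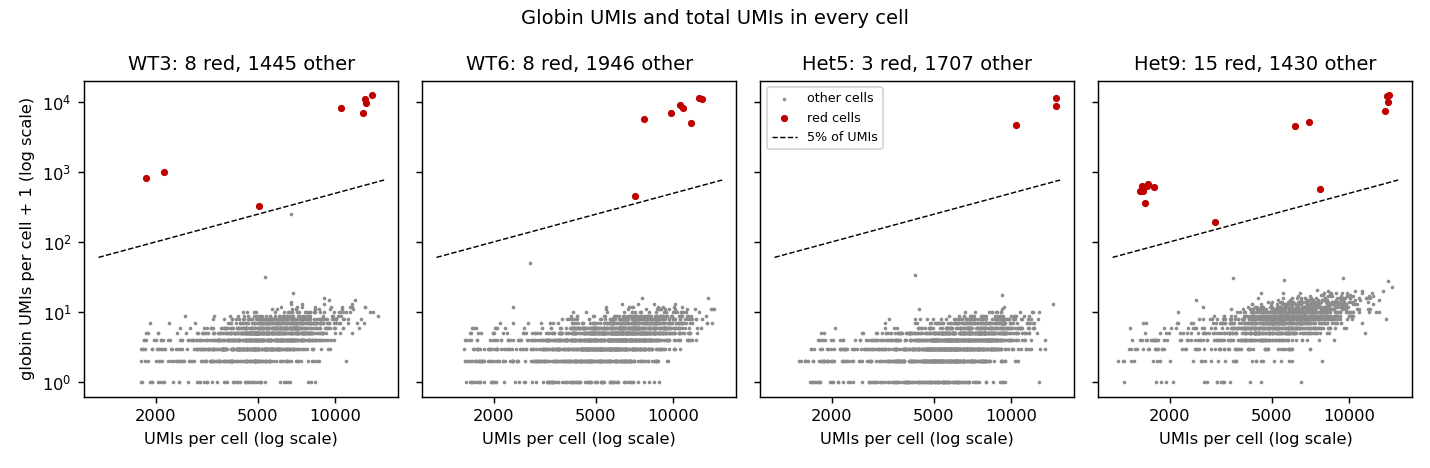
Globin UMIs plus 1 against all UMIs for every cell, both on log axes, with 1 panel per library. Red points are the 34 red cells, grey points the 6528 others and the dashed line 5% of UMIs. A gap separates most red cells from the band of other cells, and the band of Het9 lies higher than the others.

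Red cells held 191150 of 219399 globin UMIs, or 87.1%, and the remaining 28249 were spread over the other cells. In red cells the summed globins averaged 6045 UMIs per 10000 in WT3, 6657 in WT6, 6047 in Het5 and 4735 in Het9. Het9 was lowest and the other 3 libraries were close to each other. With only the 30 cells of at least 20%, the mean over libraries was 6433 in place of 5871.

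*Hbb-bs*, the stronger of the beta genes by tags, averaged 2495, 2947, 2387 and 2032 UMIs per 10000 in the red cells of WT3, WT6, Het5 and Het9. *Hba-a1* averaged 1950, 2043, 1970 and 1101. Its level in Het9 was well below that in the other libraries. *Hbb-bt* averaged 911, 1009, 1047 and 714. *Hba-a2* averaged 689, 657, 644 and 888 and was the only one of the 4 to be highest in Het9. The order was *Hbb-bs*, *Hba-a1*, *Hbb-bt* and *Hba-a2* in WT3, WT6 and Het5, and *Hba-a2* stood before *Hbb-bt* in Het9. No test was made, since the cells were chosen by these levels.

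**Figure D2:**
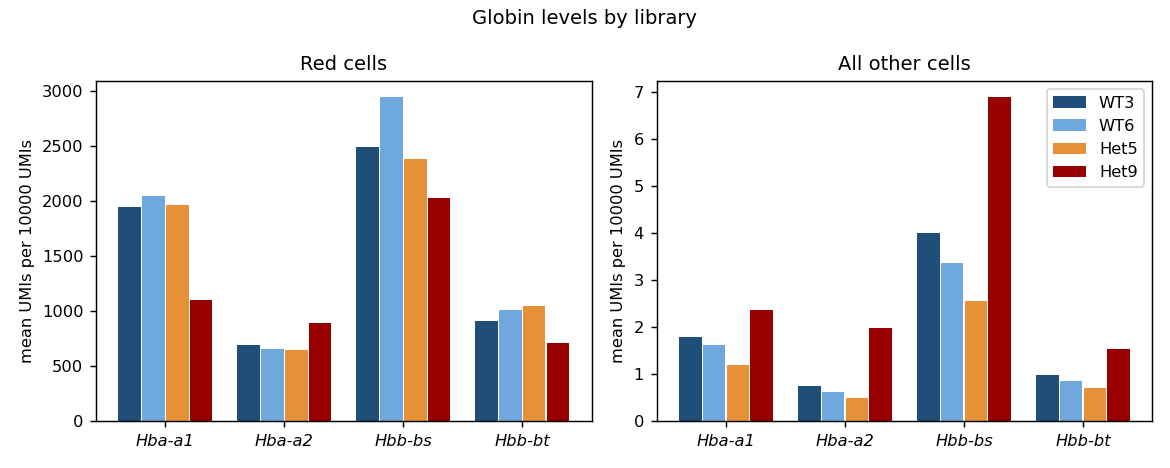
Mean UMIs per 10000 UMIs of each globin gene in the red cells (left) and in all other cells (right), with 1 bar per library and different scales. In red cells the bars of Het9 are lowest except for Hba-a2, and in all other cells they are highest for each gene.

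The other genes of red cells were read from a list of 50 erythroid genes, of which 48 were present. Of these, 12 had no UMI in red cells and 43 had a UMI outside red cells. Among the 43, 23 (53.5%) averaged higher in red cells than in other cells, against 7.48% of the 16567 genes with a UMI outside red cells, and 18 (41.9%) were at least 5 times higher, against 1.03%. The median ratio of red to other cells was 2.11 for the 43 genes and 0.129 for the 16567. Ratios of genes other than globins are lowered in cells where globins take most of the UMIs. *Alas2*, which makes the first enzyme of haem synthesis in red cells, averaged 12.7 UMIs per 10000 in red cells and 0.00952 in others. *Slc4a1*, the band 3 anion exchanger, averaged 0.595 and 0.000847.

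The erythroid genes with the highest red cell levels among those at least 5 times higher covered several functions. Haem synthesis was represented by *Alas2*, *Fech* (2.82 against 0.145), which inserts the iron, and *Slc25a37* (2.33 against 0.0260), the mitochondrial iron carrier. *Gpx1*, a glutathione peroxidase, averaged 10.5 against 1.26, and *Bpgm*, which makes the ligand that lowers the oxygen affinity of haemoglobin, 4.90 against 0.651. *Ube2l6* had 2.16 against 0.0868, *Blvrb* 1.21 against 0.116 and *Car2*, a carbonic anhydrase, 1.04 against 0.0226. The early regulators *Klf1* and *Gata1*, the erythropoietin receptor gene *Epor* and the membrane gene *Epb42* had 0 UMIs in the 34 cells. Among the other cells *Klf1* had 57 UMIs and *Gata1* 1.

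The remaining haemoglobin genes were nearly absent. *Hbb-bh1*, an embryonic beta-like gene, had 16 UMIs, all in 1 red cell of WT3, and 3 UMIs in other cells, also of WT3. *Hbb-y* had 0 UMIs in red cells and 2 in others. *Hbq1a* had 1 UMI in a red cell, and *Hba-x* and *Hbq1b* had 0 anywhere.

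Outside red cells, globin UMIs were found in nearly every cell, and only 301 of 6528 cells (4.61%) had none. The share with at least 1 was 96.5% in WT3, 95.2% in WT6, 91.8% in Het5 and 98.8% in Het9. With each cell thinned to 2000 UMIs, which left out shallower cells, it was 75.6%, 70.2%, 61.4% and 90.5%. The order of the libraries was the same at equal depth. The summed level was 0.136% of that in red cells.

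Per cell, the other cells held 4.14 globin UMIs in WT3, 3.63 in WT6, 2.93 in Het5 and 7.13 in Het9. Per 10000 UMIs the means were 7.49, 6.43, 4.94 and 12.7. *Hbb-bs* had 3.99, 3.36, 2.54 and 6.88 UMIs per 10000 in WT3, WT6, Het5 and Het9. Every library gave *Hbb-bs* as the most frequent of the 4. *Hba-a1* had 1.79, 1.60, 1.20 and 2.36 and *Hbb-bt* 0.970, 0.857, 0.701 and 1.53. *Hba-a2* had 0.743, 0.607, 0.494 and 1.96, the widest spread among libraries as a ratio of highest to lowest. For each of the 4 genes Het9 was highest and Het5 lowest, so the *Setd5*+/- libraries enclosed both *Setd5*+/+ libraries. Het9 was also the library with the highest share of red cells, and Het5 the one with the lowest. Counted over all cells of a library, the globin UMIs inside red cells were 39.3 per cell in Het9, 35.1 in WT3, 29.7 in WT6 and 14.7 in Het5, the same order as outside red cells.

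Apart from a few cells, the spread from cell to cell was narrow. Among cells under 0.5% globin, the central 90% of cells held 1 to 8 globin UMIs in WT3 and in WT6, 0 to 7 in Het5 and 2 to 14 in Het9. The variance was 1.39, 1.37, 1.37 and 1.86 times the mean in WT3, WT6, Het5 and Het9. Over all cells outside red cells it was 11.6, 1.65, 1.54 and 1.95 times the mean, and in WT3 the higher value rests on 2 cells over 0.5% globin, which held 251 and 31 globin UMIs. A Poisson distribution has a ratio of 1 and, for cells under 0.5% globin, would leave 1.92%, 2.71%, 5.46% and 0.0827% of these cells without a globin UMI, whereas 3.47%, 4.83%, 8.21% and 1.19% had none. Cells differed in depth, which was not part of that Poisson value.

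Globin UMIs followed the depth of the cell in every library. With the cells under 0.5% globin put into 5 equal groups by depth, mean UMIs were 2.70 to 3.12 times higher in the deepest group than in the shallowest over the 4 libraries, and globin UMIs 2.21 to 2.57 times higher. In Het9 the means were 4 globin UMIs in the shallowest group and 10.3 in the deepest. In Het5 they were 1.82 and 4.28. Globin UMIs thus increased less than total UMIs, and per 10000 UMIs the deepest group had 0.807 of the shallowest in WT3, 0.681 in WT6, 0.766 in Het5 and 0.871 in Het9.

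**Figure D3:**
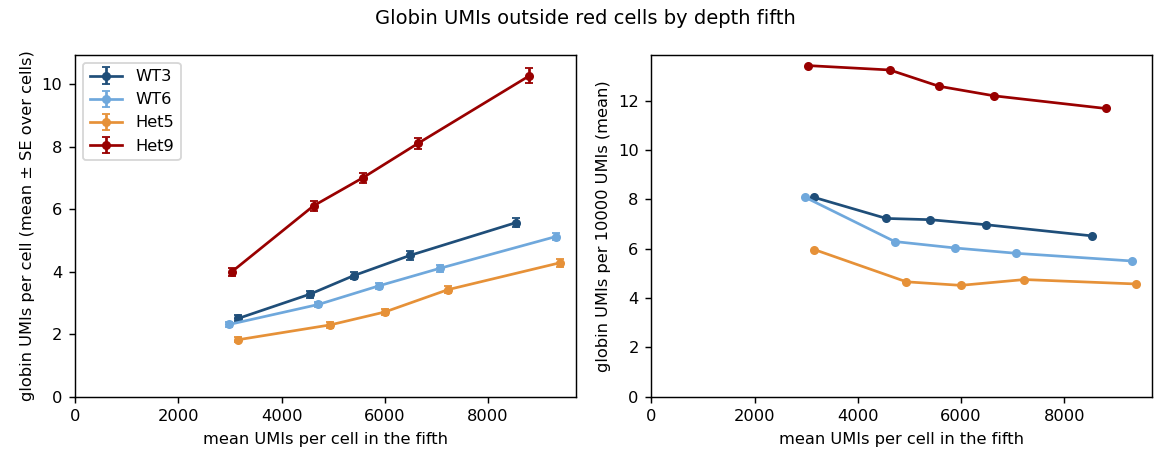
Globin UMIs per cell (left, mean ± SE over cells) and per 10000 UMIs (right) in 5 equal groups of cells ordered by total UMIs, for cells under 0.5% globin. The left curves climb with depth in all 4 libraries, the right curves end lower than they start, at 0.681 to 0.871 of the first group, and Het9 stays on top throughout.

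Levels outside red cells varied between clusters as well as between libraries. Over the 13 clusters that held 20 or more cells of each library, the highest summed level per 10000 was 1.71 times the lowest in WT3, 1.49 in WT6, 1.92 in Het5 and 1.80 in Het9. In WT3 the highest value, 11.5 in cluster 6, rested on 1 cell with 251 globin UMIs, and with cells under 0.5% globin the ratio was 1.20. In clusters 0 to 10 the summed level ran from 4.19 to 5.82 in Het5, from 5.58 to 8.29 in WT6, from 6.74 to 11.5 in WT3 and from 11.6 to 15.2 in Het9. Het9 was highest and Het5 lowest in 11 of these 11 clusters. Cortical excitatory neurons of cluster 0 had 7.03, 6.19, 4.85 and 12.4 UMIs per 10000 in WT3, WT6, Het5 and Het9, and *Lhx6*-bearing interneurons of cluster 5 had 7.58, 7.61, 5.77 and 15.2. Radial glia-like cells of cluster 3, whose first leading genes were *Ttr* and *Aldoc*, had 7.83, 5.76, 5.03 and 13.4.

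Globin UMIs per cell correlated with mean UMIs per cell over the 13 clusters, with Pearson's r of 0.863 in WT3, 0.974 in WT6, 0.853 in Het5 and 0.924 in Het9. With cells under 0.5% globin, which leaves out the cell of WT3 with 251 globin UMIs, r was 0.980, 0.979, 0.855 and 0.927. Clusters of a library share its suspension, so these values are descriptions. The immune-like cluster 12 was the shallowest in each library, with 1.90, 1.39, 1.81 and 2.11 globin UMIs per cell in WT3, WT6, Het5 and Het9. These were the lowest values of their libraries, but in Het5, with cells under 0.5% globin, cluster 7 was lower at 1.63.

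**Figure D4:**
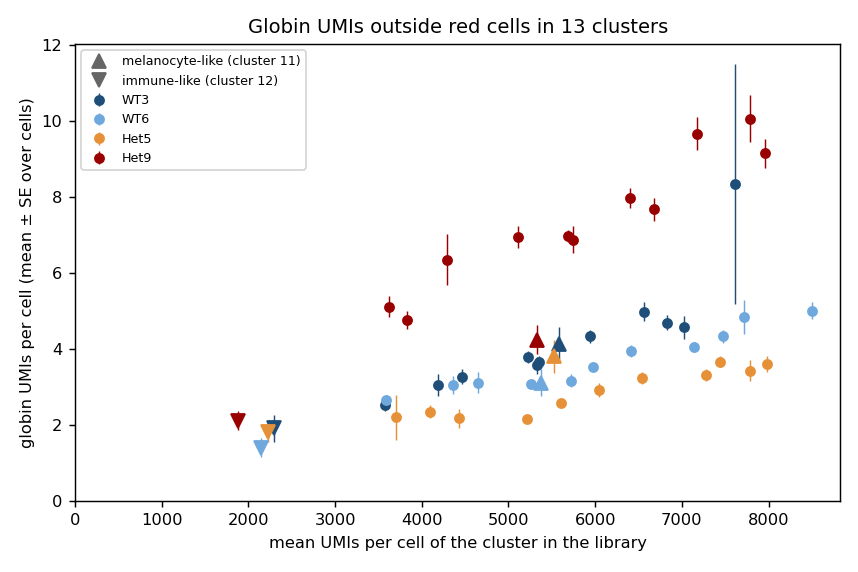
Globin UMIs per cell (mean ± SE over cells) against mean UMIs per cell, with 1 point per cluster and library outside red cells, for 13 clusters. Circles are clusters 0 to 10, where Het9 lies above the other libraries at like depth, and triangles are the melanocyte-like and immune-like clusters, which lie between 1.39 and 4.24 globin UMIs per cell. The wide bar in WT3 comes from 1 cell with 251 globin UMIs.

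In clusters 11 and 12 Het9 was also highest. The melanocyte-like cells held 4.14, 3.11, 3.81 and 4.24 globin UMIs in WT3, WT6, Het5 and Het9, and 7.55, 6.04, 6.53 and 8.47 per 10000 UMIs. The immune-like cells, 21 to 35 a library, had 8.06, 6.10, 8.03 and 11.9 per 10000. WT6 and not Het5 was lowest in both clusters. These clusters consist largely of the barcodes present in all 4 libraries, 140 of 146 cells in cluster 11 and 84 of 105 in cluster 12. In the 56 barcodes, total UMIs correlated between libraries with r above 0.999 in each of 6 pairs. *Dct* summed to 819, 832, 830 and 860 UMIs over the same barcodes in WT3, WT6, Het5 and Het9 and *Cd74* to 394, 432, 428 and 437, with r per barcode of 0.960 to 0.972 and 0.960 to 0.994. Near-equal counts of the same barcodes therefore stood in libraries of different fetuses and of both genotypes.

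*Dct* and *Cd74* mark different cells among these barcodes, so their r also reflects that split. The globins of the shared barcodes rested on few UMIs. They averaged 3.38, 2.54, 3.14 and 3.63 UMIs per cell in WT3, WT6, Het5 and Het9, with r between 0.315 and 0.552 over the 6 pairs. *Setd5*, also a gene of low counts, summed to 20, 22, 27 and 18 UMIs over the same barcodes. Cells with a barcode of a single library averaged 4.18, 3.67, 2.93 and 7.29. The shared barcodes were shallow, with medians of 3158 to 3361 UMIs. Per 10000 UMIs their globins averaged 7.84, 6.18, 7.26 and 9.83, against 7.49, 6.43, 4.94 and 12.7 over all cells outside red cells, so the shared barcodes lay below that mean in Het9 and above it in Het5. No red cell had a barcode found in more than 1 library.

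Pooled over the cells of a library, the make-up of the globin UMIs differed between red and other cells in the same direction in all 4 libraries. Alpha globins took 43.7%, 40.3%, 42.9% and 42.0% of globin UMIs in the red cells of WT3, WT6, Het5 and Het9. In other cells they took 33.7%, 34.2%, 34.3% and 34.2%, with exact 95% intervals between 32.5% and 35.6% over the libraries. The ratio of alpha to beta was 0.732 ± 0.043 in red cells and 0.517 ± 0.007 in other cells (SD, n = 4 libraries). *Hbb-bs* alone took 41.6%, 44.1%, 39.9% and 42.9% in red cells and 53.4%, 52.5%, 51.5% and 53.7% in others. *Hbb-bt* was 26.0% to 30.2% of beta UMIs in red cells and 18.4% to 21.6% in others. So *Hbb-bs* had a larger pooled share outside red cells and *Hbb-bt* a smaller one in each library. Single red cells of at least 20% globin ranged widely, from 29.9% to 49.2% alpha and from 18.8% to 34.3% *Hbb-bt* of beta. The lowest single alpha share was 38.7% in WT3, 32.2% in WT6, 41.1% in Het5 and 29.9% in Het9, so it fell under the pooled share of other cells in WT6 and Het9 but not in WT3 and Het5. With cells of at least 5 globin UMIs left out, the ratio of alpha to beta outside red cells was 0.521.

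Het9 differed from the rest in the alpha pair. *Hba-a2* made up 25.9%, 24.2%, 24.5% and 44.5% of alpha UMIs in the red cells of WT3, WT6, Het5 and Het9. In single red cells of at least 20% globin, the share ran from 42.1% to 49.6% in the 13 cells of Het9 and from 20.98% to 31.0% in the 17 cells of the other libraries. At this limit the ranges did not overlap, but a red cell of WT6 with 6.47% globin had 45.5%. Het9 is 1 library, its cells are not replicates, and no like ranges were computed for other genes. Outside red cells the share was 29.8% (exact 95% interval 27.8 to 31.9), 28.1% (26.3 to 29.9), 28.9% (26.8 to 31.1) and 44.9% (43.2 to 46.5). In clusters 0 to 10, it lay between 39.3% and 53.7% in Het9 and between 18.2% and 36.6% in the other libraries. Each library's other cells thus carried an *Hba-a2* share near that of its own red cells, closest in Het9 and a few percentage points higher in the other 3. In the shared barcodes it was 33.3%, 43.6%, 32.3% and 49.3% in WT3, WT6, Het5 and Het9, from 55 to 75 alpha UMIs. As the alpha transcripts differ at so few bases, whether this is a difference in expression or in which reads could be assigned was not tested.

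**Figure D5:**
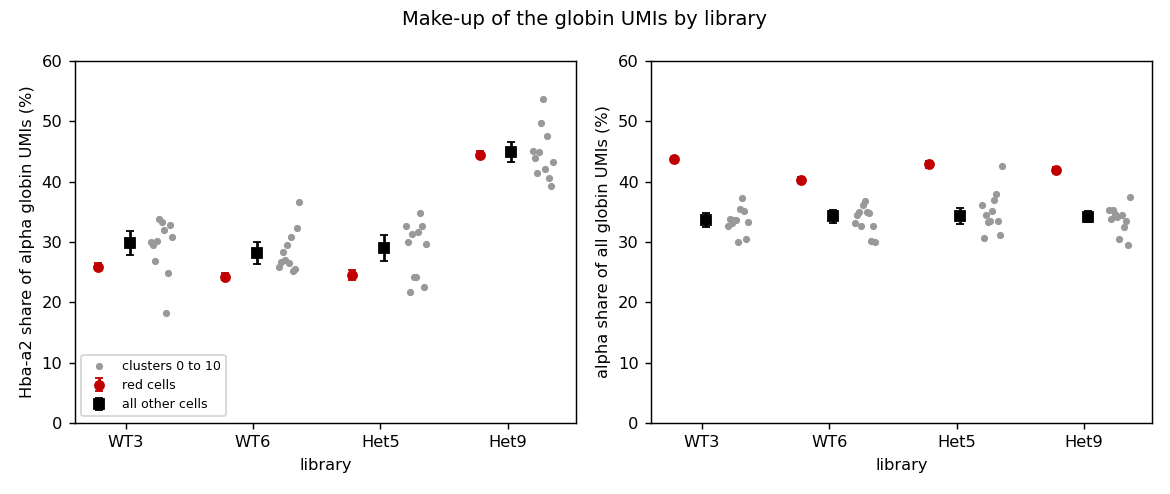
Hba-a2 as a percent of alpha globin UMIs (left) and alpha globins as a percent of all globin UMIs (right) in each library. Red circles are red cells and black squares all other cells, with exact 95% intervals, and grey points are clusters 0 to 10. On the left Het9 stands near 45% in both kinds of cell, and on the right red cells lie above other cells in each library.

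Cells between both kinds were few and did not all share the make-up of their library. Of the 4 cells between 6.43% and 7.39% globin, the cell of WT6 had an *Hba-a2* share of alpha of 45.5% and an *Hbb-bt* share of beta of 8.53%. Both lay outside the range of the other red cells of WT6, 21.5% to 26.6% and 18.8% to 32.8%. The cell of WT3 had shares of 32.6% and 39.5%, and the cell of WT3 at 3.74% had 35.6% and 40.1%. The 2 cells of Het9 had *Hba-a2* shares of 44.5% and 41.7%. The 4 cells fell in clusters 3, 1, 5 and 1, whereas 24 of the 34 red cells were in cluster 7. A doublet caller marked 1 of the 4.

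The question of genotype was put to the libraries, with 2 fetuses a side. Outside red cells, 0 of the 4 globin genes passed the test, against 7 of 8145 genes called (0.0859%) by limma. None of the 4 had an unadjusted p under 0.05, against 355 of all genes (4.36%). *Hba-a2* had a log2 difference of 0.52 ± 0.47 (SE) between *Setd5*+/- and *Setd5*+/+ libraries, *Hbb-bs* 0.19 ± 0.37, *Hbb-bt* 0.17 ± 0.27 and *Hba-a1* -0.0049 ± 0.25, on log2(mean per 10000 + 0.1), with adjusted p of at least 0.991. The 95% interval for *Hba-a2* ran from -0.57 to 1.61. The summed level averaged 6.96 ± 0.745 in *Setd5*+/+ and 8.84 ± 5.51 in *Setd5*+/- libraries (SD, n = 2, exact permutation p = 1). No difference was called, and the *Setd5*+/- libraries lay far apart. What size of difference could be detected was not tested.

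Which library of the mutant pair was used turned the direction. With either left out, the *Setd5*+/- side is 1 library, the spread comes from WT3 and WT6 alone, and the lone library is assumed to vary as they do, so these calls compare libraries and not genotypes. Without Het5, *Hba-a2* was 1.42 higher (adjusted p = 0.00261), *Hbb-bs* 0.89 (0.0183) and *Hbb-bt* 0.69 (0.0373), so 3 of the 4 were called, against 0.443% of genes. *Hba-a1* was 0.46 higher there and was not called (0.134). Without Het9 all 4 differences were negative, from -0.34 for *Hbb-bt* to -0.51 for *Hbb-bs*, with adjusted p of at least 0.508, none of them called (0.0614% of genes called), although the 4 unadjusted p ran from 0.000937 to 0.0142. Of all genes, 283 of 8137 (3.48%) had an unadjusted p under 0.05 in that setting.

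Within the 13 clusters, 0 of 52 pairs of globin gene and cluster were called by limma, against 0.103% of all gene and cluster pairs. An unadjusted p under 0.05 was found in 7 of the 52 pairs, against 5.21% of all pairs. The mean log2 level of *Hba-a2* over the *Setd5*+/- libraries was the higher one in 12 of 13 clusters, with a median difference of 0.53. The medians were 0.33 for *Hbb-bt*, 0.20 for *Hbb-bs* and 0.08 for *Hba-a1*. Het9 had the highest *Hba-a2* level in each of the 13 clusters. Het5 lay below both *Setd5*+/+ libraries in clusters 1, 2, 4, 5, 6, 9 and 11. It lay between them in clusters 0, 3, 7 and 8 and above both in clusters 10 and 12. How many other genes were as one-sided over clusters was not tested. Clusters share the same 4 libraries and do not repeat the comparison. With a library left out, 1 side is again a single library whose spread is taken from the other side. Without Het5, 26 of 52 pairs were called, all higher in the mutant, against 0.428% of all pairs. Without Het9, 5 of 56 were called, all lower (background 0.130%), and without WT6 3 of 52, also lower (0.155%).

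The distance between the mutant libraries was large beside other genes. Of 8145 genes, ranked by the size of the log2 difference between Het9 and Het5, *Hba-a2* was 5th at 1.80, *Hbb-bs* 9th at 1.40, *Hbb-bt* 10th at 1.02 and *Hba-a1* 12th at 0.92. The median over genes was 0.08. *Ttr*, the transthyretin gene of the choroid plexus, was 1st at 3.84. Between WT3 and WT6 the 4 globins differed by 0.14 to 0.25, at ranks from 572 to 1987.

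Markers of other rare cells were set beside the globin background, though the levels are not like for like. Red cells were chosen by their globins, and clusters 11 and 12 consist largely of barcodes shared by libraries. *Dct*, of melanocytes, averaged 42.1 UMIs per 10000 in cluster 11 and 0.0378 elsewhere, or 0.0899% of its own level. *Cd74*, of antigen-presenting cells, averaged 95.2 in cluster 12 and 0.0419 elsewhere, or 0.0440%. The globins stood at 0.136% of their level in red cells and *Alas2* at 0.0752%. *Ttr*, the first leading gene of cluster 3, averaged 1.84 UMIs per 10000 in Het9 and at most 0.0808 in the other libraries. Over all libraries, only 0.643% of the 6528 cells outside red cells had it. The highest members of the other lists were *Col3a1* for fibroblasts at 0.0493, *Pdgfrb* for mural cells at 0.0317 and *Pecam1* for endothelium at 0.01005.

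Genes with a pattern most like the summed globins were sought over clusters and libraries by Pearson's r of log2 levels. With red cells included, over 56 points, they included *Fech* (0.879), *Ube2l6* (0.810), *March2* (0.720) and *Gpx1* (0.710). The points added for red cells were chosen by their globins, so these r mostly set red against other cells and describe that choice. Without red cells, over 52 points, they were *Gm8730* (0.474), *Gm5900* (0.464), *Atpaf2* (0.395), *Prr14* (0.368) and *Snx21* (0.367), so no gene outside the haemoglobin family came near *Hbb-bs* (0.976) or *Hba-a2* (0.916), which are parts of the sum. *Gm8730* and *Gm5900* were also 3rd and 4th by the difference between Het9 and Het5.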

How the data were processed

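The 4 single-cell libraries, 2 per genotype, held sorted cells of the cortex at E18.5. The natural log values deposited by the authors are ln(1 + counts per 10000 UMIs of the cell), from libraries aggregated by Cell Ranger. The submitters' processing notes name Cell Ranger 2.1, then Seurat 2.3.0, and the build mm10. Not given in the sources used here: annotation, strand setting, limits on cells, the treatment of reads that fit more than 1 gene and whether aggregation equalised depth. Whole UMIs were recovered for 100% of 14848520 values above 0 (relative tolerance 0.001). Library totals were 8205330, 11742956, 10520377 and 8287611 UMIs.

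Cells were clustered without haemoglobin genes and *Setd5* (2000 variable genes, 20 principal components, 20 neighbors, Leiden resolution 0.5). Red cells were to be the erythroid cluster. No cluster reached the median of 5% globin that this required, so a second rule, at least 5% of UMIs from the 4 globins, was used. Scrublet marked 64 cells (0.975%) as doublets, which were kept in the main results. Genotypes were compared with limma (variance trend) on log2(mean per 10000 + 0.1) for genes with a mean of at least 0.1, with Benjamini-Hochberg adjustment over all genes tested and a threshold of 0.05, or with exact permutation tests over libraries. No count model was fitted to the recovered UMIs. The fit was also run on simulated data, whose outcome is not reported here. Libraries were told apart by the prefix of the cell names, which matches a genotype in the labels but no single sample, and each prefix was taken as 1 replicate. P-values measure the spread between these libraries.

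Members and gene lists were chosen with earlier results of these data known. The text names the 4 globins, the other haemoglobin genes, *Setd5*, the cell type markers, the 10 erythroid genes with the highest red cell level among those at least 5 times higher there, the 5 genes most like the globins with and without red cells, and the highest member of each list of rare cells outside its own cluster. *Slc4a1* and the 2 gene models noted for the difference between Het9 and Het5 were named after their values were seen. Some genes that these rules name are not reported here. Promoters come from RefSeq (GRCm38.p6) and transcripts from GENCODE M21, matched for 4 of 4 genes. Calculations ran in R 4.3.3 (limma 3.58.1) and in Python 3.11.15 (scanpy 1.11.5, leidenalg 0.10.2, biopython 1.88, scipy 1.17.1, pandas 2.3.3, numpy 2.4.6). The alternatives are given in the closing section, and the bulk RNA-Seq was not used here.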

Additional observations from a re-analysis of the deposited data

How the results depend on the processing

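The count of called globin genes outside red cells stayed at 0 under each alternative except for leaving out libraries, where it ran from 0 to 3, and the count over all genes, 7, ran from 5 to 36 (36 without Het5). The summed difference, 0.19 on the log2 scale, ran from -0.48 (without Het9) to 0.87 (without Het5) when single libraries were left out. It became -0.26 with red cells kept, where *Hba-a1* was -0.47, *Hbb-bs* -0.27, *Hbb-bt* -0.19 and *Hba-a2* 0.15. *Hba-a1*, at -0.0049, was 0.013 with a pseudocount of 1, 0.038 with UMIs summed per library, 0.066 with mean UMIs per cell and 0.020 without cells over 0.5% globin. With single libraries left out it ran from -0.47 to 0.46, *Hba-a2* from -0.38 to 1.42, *Hbb-bs* from -0.51 to 0.89 and *Hbb-bt* from -0.34 to 0.69. Called pairs of globin gene and cluster, 0 in the main setting, ran from 0 to 26 when libraries were left out and stayed at 0 with other pseudocounts, resolutions, filters, depths and without doublets or shared barcodes. The difference in red cell share ran from -0.305 (without Het9) to 0.558 percentage points (without Het5). The level in red cells ran from 5609 to 6250 UMIs per 10000 and the ratio of alpha to beta outside red cells from 0.516 to 0.521 without single libraries, and this ratio was 0.527 with red cells set at 20%. Each setting without a library leaves 1 library on its side, assumed to vary like the 2 of the other genotype. The causes were not tested.

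Clustering with haemoglobin genes kept gave no cluster of red cells alone, so that alternative gave no value. Settings with red cells at 20%, with cells over 0.5% left out and with red cells kept, and the ratio without shared barcodes, were chosen after seeing the data. No paired analysis was possible because the labels define no pairs of fetuses across genotypes. Comparisons of 2 against 2 libraries cannot reach a permutation p below 0.33, and outside red cells the 4 genes rest on 28249 UMIs.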
